A study of Drosophila melanogaster with 32 samples.

Results

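The 1683 regions described here were called open in mature spermatocytes of the Drosophila melanogaster testis and in topi mutant spermatocytes, but neither in spermatogonia nor in aly mutant spermatocytes. They are the peaks of the 72h list of ATAC-seq, an assay that finds open chromatin by transposase insertion, that overlapped no peak of the bam list, at least 1 peak of the topi list by 1 bp or more, and no peak of the aly list. They made up 4.73% of the 35547 peaks of the 72h list and 14.7% of the 11447 peaks of that list that lacked a bam peak, and are called topi-only peaks below. The other peaks without a bam peak fell into 6318 open in neither mutant, 2331 open in both mutants and 1115 open in aly mutants but not in topi mutants.

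The study followed male germ cells from spermatogonia to spermatocytes in 20 ATAC-seq, 8 RNA-seq and 4 CAGE libraries of whole testes. bam -/- testes, which accumulate spermatogonia, came from unshocked males after 12 days at 22 C. The 48h and 72h testes were bam -/- as well and carried a Bam transgene under a heat shock promoter; the males were grown at 22 C for 9 days, shocked at 37 C for 30 min and kept at 25 C for 48 or 72 h, so that germ cells moved on together into young (48h) or mature (72h) spermatocytes. The heat shock control was bam -/- without the transgene, given the same shock and 48 h at 25 C. aly -/- and topi -/- males, unshocked and grown for 10 days at 25 C, carried neither the bam mutation nor the transgene, as far as their labels say. Genotype, temperature and shock therefore differ together between the 72h samples and both mutants. ATAC-seq had 2 bam, 2 control, 3 48h and 3 72h libraries, 6 aly libraries and 4 topi libraries. The aly and topi libraries are labelled in pairs, a and b, of the same replicate number, so not all count as separate replicates. RNA-seq had 2 libraries each of bam, 48h, 72h and aly, from 100 pairs of testes a library. No RNA-seq library of topi mutants was among the samples.

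aly (always early) and topi (matotopetli) encode subunits of tMAC, the testis form of a chromatin complex related to the Myb-MuvB complex of other tissues. tMAC is needed in primary spermatocytes to switch on a large set of genes for meiotic division and sperm formation, and spermatocytes that lack it arrest before meiosis. Topi is a zinc finger protein that can bind DNA, and Aly is a homolog of LIN-9. A peak open in 1 of these mutants and not in the other is therefore a place where the called chromatin states of 2 mutants of the same complex differ.

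RNA-seq libraries held 20064489 to 28984275 counts. Spermatocyte markers summed to 39.8 to 40.8 CPM (read counts scaled to a common library size with TMM) in bam testes, with comr, sa and tbrd-2 at 0, and to 2680 to 2700 CPM at 48h, 2230 CPM at 72h and 6670 CPM in aly mutants. The 5 counted spermatogonial markers summed to 635 to 645 CPM in bam testes, 718 to 722 at 48h, 483 to 493 at 72h and 492 in aly mutants. None of them had a member at an end. The sum was not lower at 48h than in bam testes, but the markers went different ways. From bam to 48h chinmo rose from 226.2 and 232.1 to 525.9 and 524.4 CPM, and bgcn changed little. In the same step bam fell to 29.4 in both libraries, zpg from 94.9 and 94.7 to 9.67 and 9.69, and stg from 73.4 and 71.0 to 9.67 and 9.51. RNA of aly itself was counted at 72.0 and 69.7 CPM in aly mutants, and RNA of bam at 94.9 and 98.5 CPM in bam mutants, so RNA level does not check either label. The 2 libraries of a group differed little more than counting noise, since 6.81% to 7.14% of genes differed at p below 0.05 by a chi-square test. The p-values below measure this spread, which may be technical. In whole testes, fewer cells of a type and less RNA per cell cannot be told apart.

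Topi-only peaks were weak in the lists that defined them. Their fold enrichment over background at the summit, as the authors' peak caller gave it, ran from 1.41 to 10.3 in the 72h list with a median of 2.06, against 2.92 for all 72h peaks. In the topi list the matching peaks had a median fold of 2.07, at the 27.0th percentile of that list. The median -log10 q was 7.36 against 23.1 for all 72h peaks, and 25.6% of the topi-only peaks were under 5. Their median width was 145 bp against 215 bp. These values follow from the selection in part and carry no test.

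The rule asks for only 1 shared base, and some members lay close to its edge. The smallest overlaps with a topi peak were 2, 5 and 7 bp, and the nearest peaks left out of the set for lack of one lay 4, 5 and 8 bp from a topi peak. On the aly side, the nearest members lay 6, 6 and 15 bp from an aly peak, and the nearest excluded peaks overlapped one by 2, 8 and 10 bp. A bam or aly peak lay within 250 bp of 482 members, which is 28.6%. The topi list also held more peaks than the aly list, 38078 against 29559. With the topi list cut to the same number of peaks by q, 1000 members remained, and with a -log10 q of 10 or more asked of both the 72h and the topi peak, 256 remained.

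The share of a member that its topi peak covered had a median of 89.2%, and 496 members lay wholly inside a topi peak. In 221 members, or 13.1%, the topi peak covered less than 50% of the 72h peak. Those 221 peaks were wider, with a median of 265 bp against 139 bp for the 1462 others, and had a median fold of 2.24 against 2.03 in the 72h list. Coverage, width and fold come from the same lists as the rule and are given as a description.

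**Figure D1:**
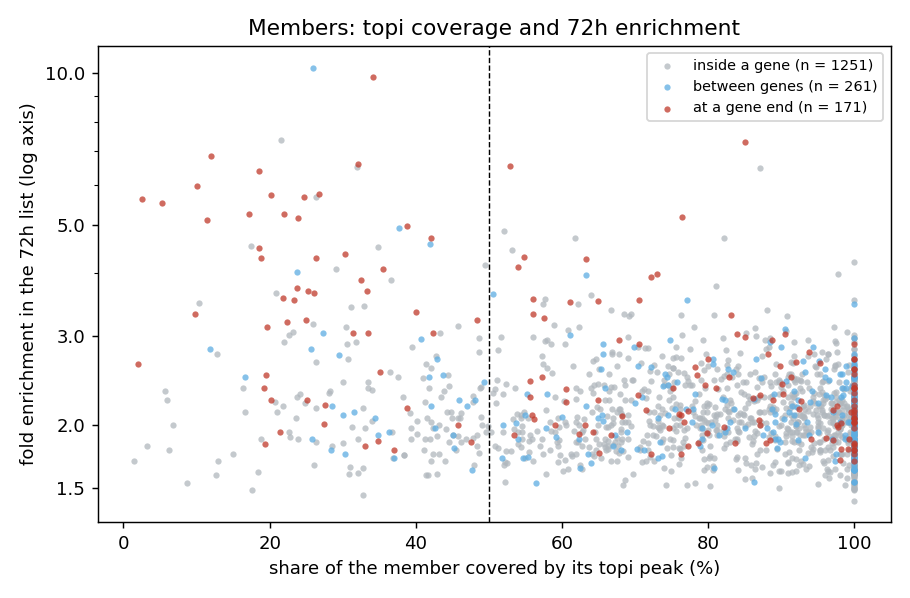
Share of each topi-only peak covered by its topi peak (%, x axis) against its fold enrichment in the 72h list (log y axis), with points coloured by position on the annotation. The dashed line stands at 50%; 53 of the 171 peaks at a gene end (31.0%) and 136 of the 1251 inside a gene (10.9%) lie to its left, and the median coverage is 73.0% at gene ends and 90.6% inside genes.

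The 8 strongest members lay at gene ends, inside genes or, on the Y chromosome, between genes. The highest fold of all, 10.3, was at chrY:854491-854888 (dm6), between genes and 15303 bp from the nearest gene end; the topi peak there had a fold of 2.16. The 48h list had a peak over it with a fold of 5.79, and the heat shock control list one with a fold of 2.32. The second, at chr2L:4249158-4249870, had a fold of 9.84 in the 72h list, 7.75 in the 48h list and 1.76 in the topi list, and lay at an end of the long noncoding RNA gene lncRNA:CR44059. The peak at chr3L:22606169-22606696 had a fold of 7.32 in the 72h list, 2.21 in the 48h list and 1.99 in the topi list, and covered an end of ND-B14.5AL. The next were at an end of CG13442 (fold 6.86), at the shared end of CG31924 and CG5561 (6.61, chr2L:1354022-1354402) and at an end of CG42841 (6.55, chr3L:2005262-2005785). Among the 8 highest, 2 more lay inside CG30460 (7.39) and CG8170 (6.52), and all 8 overlapped a peak of the 48h list. In each of these 8 the topi peak had a fold of 1.64 to 2.74, below the fold at 72h. Each fold was taken at the summit of its own peak, so the folds of a member need not belong to the same base. The topi peak covered 11.99% of the member at CG13442, 32.02% at CG31924 and CG5561 and 34.08% at lncRNA:CR44059. It covered more than 50% of the members at CG42841 and ND-B14.5AL.

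Most topi-only peaks were already open in young spermatocytes. The 48h list, which the rule did not use, had a peak over 1186 of the 1683, or 70.5% (95% Wilson interval 68.2% to 72.6%). The same share was 45.4% for peaks open in neither mutant, 76.5% for those open in aly mutants alone, 84.6% for those open in both mutants and 85.4% for all 72h peaks. It was higher for stronger 72h peaks, from 59.6% of members with a -log10 q below 5 to 85.5% of those at 20 or more. Intervals cover counting error over peaks only, since each condition has 1 list, and no test across samples could be made.

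A part of the set was also open in spermatogonia that had been heat shocked. The control list had a peak over 558 members, or 33.2% (30.9% to 35.4%), against 12.5% of peaks open in neither mutant, 18.9% of aly-only peaks, 37.2% of peaks open in both and 69.1% of all 72h peaks, most of which have a bam peak. The heat shock control lacks the Bam transgene, so these 558 regions were called open in bam -/- testes after a shock though not in unshocked bam -/- testes. The share among members was 24.4%, 31.1%, 45.4% and 35.9% in 4 rising classes of -log10 q (below 5, 5 to 10, 10 to 20, and 20 or more). Among peaks open in neither mutant the same 4 shares were 15.4%, 16.4%, 15.1% and 4.08%, and among aly-only peaks 23.7%, 23.3%, 22.4% and 11.02%. Peaks open in both mutants had 23.6%, 30.8%, 45.2% and 50.0%, close to the topi-only shares in the first 3 classes. Among the strongest peaks the topi-only share lay between that of peaks open in both mutants and those of the other classes. Counted jointly, 41.9% of members had a 48h peak and no control peak, 28.5% had both, 4.63% had a control peak alone and 24.9% had neither.

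**Figure D2:**
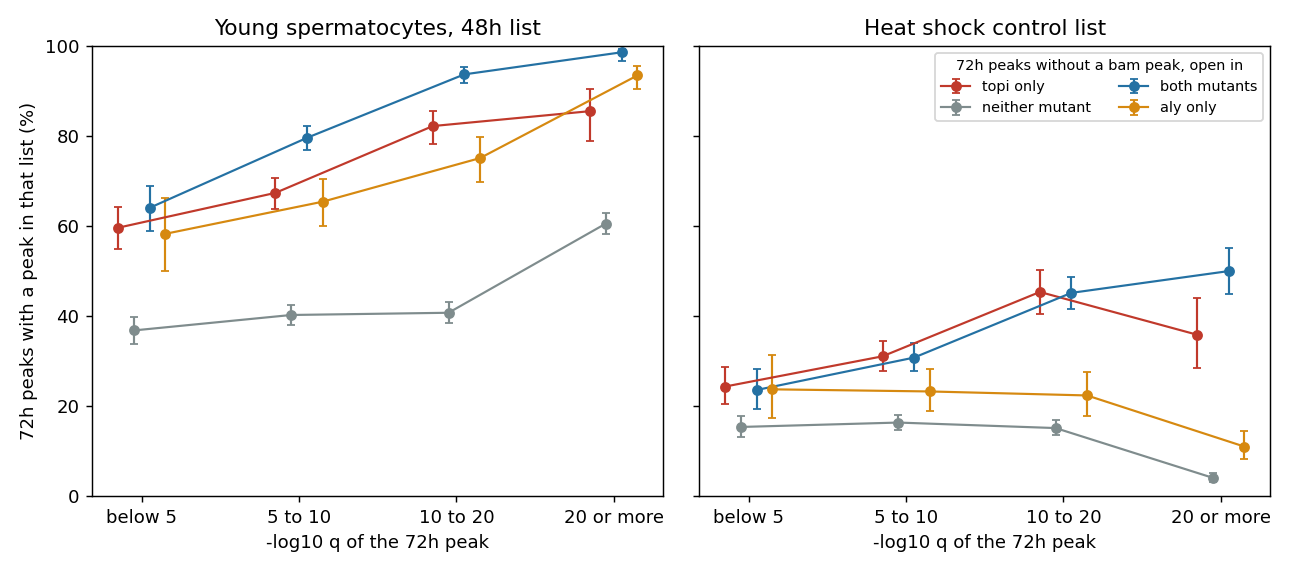
Share (%) of the 72h peaks without a bam peak that overlap a peak of the 48h list (left) and of the heat shock control list (right), by the -log10 q of the 72h peak, for the 4 classes by openness in the mutants. Points are shares and bars 95% Wilson intervals; topi-only peaks run from 59.6% to 85.5% on the left and stay at 24.4% to 45.4% on the right.

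Few topi-only peaks lay at gene ends. With 100 bp allowed on either side of an annotated end, 171 of 1683 were at a gene end (10.2%, 8.81% to 11.7%), 1251 had their place inside a gene (74.3%) and 261 lay between genes (15.5%). Gene ends held 27.8% of the peaks open in neither mutant, 34.2% of aly-only peaks, 14.1% of peaks open in both mutants and 29.5% of all 72h peaks. The median distance from the summit to the nearest gene end was 1827 bp, against 645 bp for peaks open in neither mutant, 412 bp for aly-only peaks, 2169 bp for peaks open in both and 780 bp for all 72h peaks. In position, topi-only peaks were thus near the peaks open in both mutants and far from aly-only peaks. The annotation used carries no strand, so starts and ends of genes were not told apart, and with a window of 1000 bp the share at a gene end was 39.3%.

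Position went with strength and with coverage inside the set. Of the 145 members with a -log10 q of 20 or more, 56 were at a gene end (38.6%, 31.1% to 46.7%), against 7.48% of the 1538 weaker ones. Of the 221 members covered by less than 50%, 53 were at a gene end, against 118 of the 1462 others (8.07%). The share with a 48h peak hardly varied with position, at 70.2% at gene ends, 70.9% inside genes and 68.6% between genes.

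**Figure D3:**
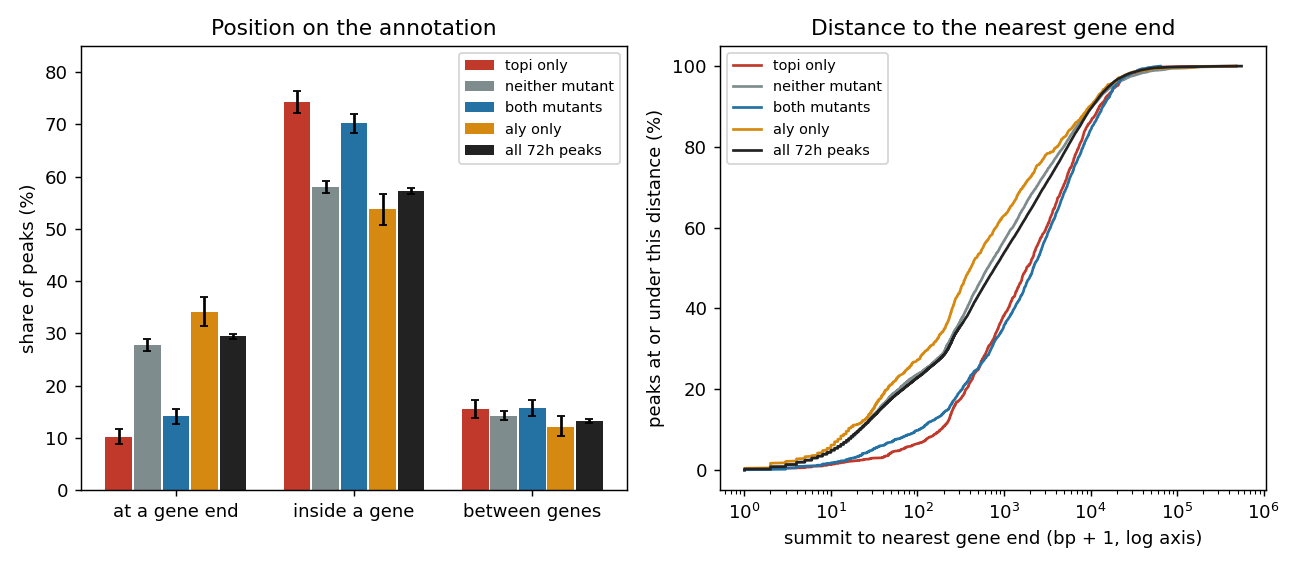
Left, share (%) of peaks at a gene end, inside a gene and between genes for the 4 classes of 72h peaks without a bam peak and for all 72h peaks, with 95% Wilson intervals. Right, cumulative share (%) of peaks by distance from the summit to the nearest gene end (bp + 1, log axis); 10.2% of topi-only peaks were at a gene end against 29.5% of all 72h peaks.

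The X chromosome held 199 members, or 11.8% (10.4% to 13.5%), against 14.49% of all 72h peaks and 22.4% of aly-only peaks. The topi list as a whole had 11.8% of its peaks on the X and the aly list 14.54%. Peaks open in both mutants, which also overlap the topi list, had 15.2% on the X, and peaks open in neither mutant 14.2%. The reason for the share among members was not tested. The small chromosome 4 held 27 members (1.60%, 1.105% to 2.32%), and the 1.100% of all 72h peaks lies just below that interval. The share was 1.28% for peaks open in neither mutant, 0.81% for aly-only peaks and 0.73% for peaks open in both. The Y chromosome held 3 members, all between genes, with folds of 10.3, 4.92 and 1.97 in the 72h list.

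Nucleosome maps were deposited for the same ATAC-seq samples, and give positions with an occupancy between 0 and 1. A position lay within 75 bp of the summit for 24.8% of members in the bam map, 26.6% in the control map, 33.3% at 48h, 36.8% at 72h, 21.4% in aly and 45.2% in topi mutants. For all 72h peaks these shares lay between 25.5% and 29.5% in the 6 maps. The median occupancy at the members' positions was 0.795 in bam, 0.753 in the control, 0.717 at 48h, 0.697 at 72h, 0.776 in aly and 0.719 in topi mutants. The 4 maps of bam, 72h, aly and topi share their reads with the lists that chose the members, so their order is a description; of the other maps, the 48h map had the lower median and the control map the higher, as over all 72h peaks (0.607 and 0.638) and over peaks open in neither mutant (0.734 and 0.799). The reads behind a position had a median of 6 in bam and 15 at 48h, so depth differed between the maps as well, and its part in the order was not tested.

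Genes with a member at an end were compared by RNA-seq, which the rule did not use. The 171 members at gene ends touched 205 genes, 160 of them protein coding and 45 of other kinds, and 175 of the 205 had enough counts to be tested among 13495 genes. The 4 groups were fitted together with edgeR's quasi-likelihood test, and calls were made where the Benjamini-Hochberg adjusted p over all genes was under 0.05. Other 72h peaks lay at an end of 79 of the 205 genes, so for these the member was not the only open region.

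In mature spermatocytes against bam testes, 103 linked genes rose and 55 fell among the 175, with 95 and 33 past 2-fold. Of all genes tested 89.8% were called, 46.1% higher and 43.6% lower, with 36.7% and 27.9% past 2-fold. The median log2 fold change was 2.14 for the linked genes and 0.06 for all genes. It was 7.36 for genes at peaks open in neither mutant, 6.21 at aly-only peaks and 0.74 at peaks open in both mutants. With the 12 linked genes that had no count in bam testes set to the bound that 3 counts there would give, the median of the linked genes was 1.75, and that of all genes stayed at 0.06. The value depended on the link: with gene ends up to 1000 bp away the median was 0.03, with 51.1% of called genes higher against 51.4% over all genes. At genes with no other 72h peak at an end it was 4.41.

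In aly mutants against 72h, 44 linked genes were higher and 115 lower, with 26 and 99 past 2-fold. Of all genes 88.1% were called, 42.2% higher and 45.9% lower, with 22.1% and 33.6% past 2-fold. The median log2 difference was -2.04 for linked genes and -0.07 for all, and it was -5.35 at peaks open in neither mutant, -0.48 at aly-only peaks and 0.30 at peaks open in both. With gene ends up to 1000 bp away the median was -0.21, and at genes with no other 72h peak at an end -3.05. Both comparisons use the same 72h libraries, so their values for a gene are not independent.

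The linked genes split by how far the topi peak reached over the member. At the members covered by less than 50%, 59 of 66 tested genes rose in 72h against bam and 7 fell, with a median log2 change of 7.63 (7.24 with the genes without counts in bam testes at their bound), and in aly mutants against 72h 10 were higher and 54 lower, with a median of -6.60. At the members covered by 50% or more, 44 of 109 rose and 48 fell, with a median of -0.04, and in aly mutants 34 were higher and 61 lower, with a median of -0.71. The rises at the latter genes, 40.4%, lay near the 46.1% of all genes, and the 56.0% lower in aly mutants stood against 45.9% of all genes. Strength of the 72h peak split the genes in a like way: at members with a -log10 q of 20 or more, 54 of 70 tested genes rose and 12 fell, with a median log2 change of 7.37, and in aly mutants 11 were higher and 54 lower, with a median of -6.51. Coverage and strength both come from the lists behind the rule and were not separated. With the topi list cut to the length of the aly list, the same counts were 49 genes higher and 39 lower in 72h against bam, with a median of 0.16. Without members that a control peak overlapped, the median was 2.65.

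**Figure D4:**
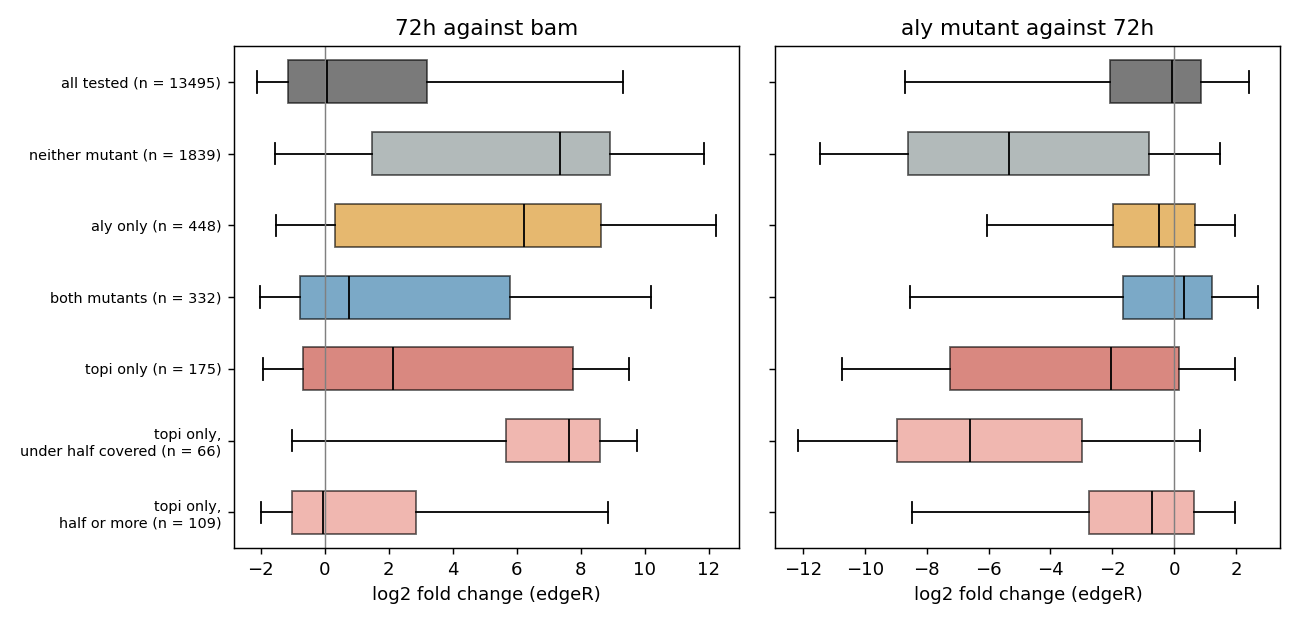
Log2 fold change (edgeR) of genes with a 72h peak at an end, for 72h against bam (left) and aly mutants against 72h (right), by class of peak, with topi-only members split at 50% coverage by the topi peak. Boxes are quartiles with the median, whiskers the 5th and 95th percentiles; the genes at less covered members have medians of 7.63 and -6.60 and the others of -0.04 and -0.71.

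The steps of the time course were compared one by one. In 48h against bam 94 rose and 58 fell among the 175, so 86.9% were called where 85.9% of all genes were (44.1% higher, 41.8% lower), with a median log2 change of 0.97 against 0.06 (0.70 with the genes without counts in bam testes at their bound, 0.04 with gene ends up to 1000 bp away). Past 2-fold were 82 and 28 of these genes, against 30.2% and 22.7% of all genes. In 72h against 48h 109 rose and 34 fell, so 81.7% were called where 80.2% of all genes were (45.9% higher, 34.3% lower), with a median of 1.11 against 0.16 (0.16 with gene ends up to 1000 bp away). Past 2-fold were 91 and 8, against 28.8% and 7.51% of all genes. Rises made up 76.2% of the called linked genes in this last comparison, against 57.2% over all called genes. With libraries scaled by their totals alone these shares were 66.0% and 43.6%, and the median of all genes moved to -0.16. With the libraries scaled by DESeq2's size factors, the median of all genes in 72h against bam was 0.26. The step from bam to 48h differed with coverage by the topi peak, with libraries scaled by TMM. At members covered by 50% or more, 37 of 109 tested genes rose and 54 fell, with a median of -0.39. At members covered by less than 50%, 57 of 66 rose and 4 fell, with a median of 4.89.

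The largest rises were in uncharacterised and noncoding genes that were almost silent in bam testes. lncRNA:CR32835, a long noncoding RNA gene, had 0.047 and 0 CPM in bam testes, 58.4 and 56.1 at 48h, 381.5 and 373.2 at 72h, against 0.91 and 0.60 in aly mutants. With 1 count in the bam libraries, its ratio of 72h to bam was 16780 with a 95% counting interval of 3012 to 662900, and it was 499-fold lower in aly mutants than at 72h (log2 difference -8.97, SE 0.07, adjusted p = 1.12e-40). Its member had a fold of 5.72 in the 72h list and of 2.30 in the 48h list, and a topi peak covered 20.2% of it.

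CG11322 had 0 and 0.043 CPM in bam testes, 16.5 and 16.9 at 48h, 91.5 and 92.3 at 72h, against 0 and 0.043 in aly mutants. Its ratio of 72h to bam was 4089 (733 to 161500), again from 1 count in bam. The gene has another 72h peak at an end besides the member at chr2L:6757566-6757881. The same holds for CG5561, CG31924, CG8560, lncRNA:CR44820 and asRNA:CR44224, described next, so at these genes too the member was not the only open region.

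CG5561 and CG31924 lie end to end and share the strong member named above. CG5561 had 0.047 and 0.086 CPM in bam testes, 32.3 and 31.8 at 48h, 120.2 and 126.2 at 72h, against 0 and 0.043 in aly mutants. CG31924 had 0 and 0.043, 3.32 and 3.12, 23.9 and 23.8, and 0 in both aly libraries, so it was at least 350-fold lower in aly mutants than at 72h (a bound that puts 3 counts in the empty group). The genes overlap by a few bases and how strands were counted is not known from the sources at hand, so reads at the overlap cannot be divided between them.

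lncRNA:CR44820 had no count in bam testes, 2.21 and 2.81 CPM at 48h, 12.0 and 12.5 at 72h and no count in aly mutants, and was at least 181-fold higher at 72h than in bam. lncRNA:CR45203 had 0.047 and 0.043 CPM in bam testes, 36.5 and 38.2 at 72h and 0 and 0.13 in aly mutants. CG8560 differed from these, with 0.094 and 0.13 CPM in bam testes and 104.8 and 104.9 at 72h, but 14.6 and 16.3 in aly mutants, 6.81-fold below 72h (log2 difference -2.76, SE 0.06, adjusted p = 1.13e-28). The member at CG8560 was weak, with a fold of 1.75 and a -log10 q of 3.32 in the 72h list. asRNA:CR44224, an antisense RNA gene, had 0 and 0.043 CPM in bam testes and 26.03 and 23.73 at 72h, and without the strand of counting it cannot be told from the gene it overlaps.

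The genes most reduced in aly mutants overlap with those just described. CG7295 had 0.42 and 0.60 CPM in bam testes, 28.0 and 28.1 at 48h, 215.1 and 213.9 at 72h and no count in aly mutants, at least 3151-fold below 72h. CG30056 had 0.094 and 0.34 CPM in bam testes, 56.0 and 52.6 at 72h and no count in aly mutants, at least 797-fold lower. azot (ahuizotl), a calcium-binding protein known from the removal of less fit cells in growing tissues, had 0.24 and 0.13 CPM in bam testes, 5.73 and 5.92 at 48h, 35.5 in both 72h libraries and no count in aly mutants. betaTub65B, a beta tubulin gene, had 1.13 and 0.99 CPM in bam testes, 23.8 and 25.4 at 48h, 131.2 and 133.1 at 72h, against 0 and 0.043 in aly mutants, and rose 125-fold from bam to 72h (log2 change 6.96, SE 0.09, adjusted p = 1.03e-34). The members at these 4 genes were covered by a topi peak by 24.7%, 23.8%, 30.3% and 9.77% of their width. Of the 4 genes, only azot had another 72h peak at an end.

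Of the 17190 genes placed on the annotation, 1.19% had a topi-only peak at an end. Of 18 testis paralogs of mitochondrial genes, 2 had a topi-only peak at an end, where 10 had a peak open in neither mutant. ND-B14.5AL, a paralog of a respiratory complex I subunit, had 0.19 and 0.47 CPM in bam testes, 2.31 and 2.46 at 48h, 37.9 and 38.7 at 72h, against 0.048 and 0.086 in aly mutants. It rose 116-fold from bam to 72h (log2 change 6.81, SE 0.16, adjusted p = 1.52e-27). UQCR-6.4L, a paralog of a complex III subunit, had 0.094 and 0.086 CPM in bam testes, 36.6 and 33.8 at 72h and 0.048 and 0 in aly mutants. Among 14 testis proteasome genes, only Prosbeta4R2, a paralog of a proteasome core subunit, had a topi-only peak at an end. Its RNA was at 0.19 and 0.22 CPM in bam testes, 6.60 and 6.83 at 48h, 74.8 and 77.6 at 72h, against 1.01 and 0.86 in aly mutants, which is 81.6-fold lower than at 72h (log2 difference -6.35, SE 0.10, adjusted p = 2.06e-31).

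None of 10 genes of tMAC and its partners achi and vis, 5 testis TAFs or 42 spermatid differentiation genes had a topi-only peak at an end, where 1.19% of all placed genes did, which is less than 1 gene for each of these lists. Of the spermatid genes 20 had one open in neither mutant, 13 an aly-only peak and 6 one open in both. Members lay inside 2 of the 42 spermatid genes, fzo, which encodes the mitofusin of spermatids, and Pif1A. In the whole count table, 1051 of 17559 genes held a member inside. Members also lay inside 3 of 13 muscle genes, 2 of 13 hub and cyst cell genes and 2 of 14 DNA replication genes. Early spermatocyte regulators, axonemal dynein and cilia, spermatogonial genes, and accessory gland and ejaculatory bulb had 1 such gene each, and the remaining lists had none. The lists of meiotic division (11 genes in the table), heat shock proteins (14), spermatogonial genes (12), DNA replication (14), early spermatocyte regulators (8), axonemal dynein and cilia (10), accessory gland and ejaculatory bulb (14) and hub and cyst cells (13) had no linked gene either.

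Among the genes with the largest falls from bam to 72h, eEF1gamma, a subunit of translation elongation factor 1, had 1620 and 1657 CPM in bam testes, 610.2 and 612.6 at 48h, 323.8 and 330.9 at 72h, a 5.01-fold fall (log2 change -2.32, SE 0.02, adjusted p = 1.79e-38). Its level of 340.3 and 343.1 CPM in aly mutants gave a log2 difference from 72h of 0.06 that turned to -0.02 with DESeq2's size factors. Stat92E, the transcription factor of the JAK-STAT pathway that supports stem cells of the testis, had 408.2 and 413.7 CPM in bam testes, 101.7 and 101.0 at 72h and 190.8 and 192.5 in aly mutants. sqd, an hnRNP that binds RNA, had 1215 and 1232 CPM in bam testes, 342.4 and 338.2 at 72h and 389.5 and 387.9 in aly mutants. eEF1gamma, Stat92E and sqd each had another 72h peak at an end, and the folds of their members in the 72h list were 2.08, 1.91 and 2.19. The member at sqd also lay at an end of CG10841, whose RNA went the other way. CG10841 had 0.85 and 1.42 CPM in bam testes, 464.9 and 452.9 at 72h and 0.96 and 1.51 in aly mutants.

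Rcd-1r fell 4.85-fold, from 138.1 and 140.0 CPM in bam testes to 29.3 and 28.0 at 72h, and was at 87.3 and 86.4 in aly mutants. CG14566 fell 5.54-fold, from 15.6 and 16.8 CPM to 3.23 and 2.62, with 4.31 and 6.47 in aly mutants, and its member is the single 72h peak at its ends. Cad87A, a cadherin, fell 3.88-fold from 112.5 and 114.7 to 30.1 and 28.4 CPM. nec, a serine protease inhibitor, fell 3.84-fold from 55.7 and 58.9 to 14.99 and 14.84 CPM. Unlike the other falling genes it was lower still in aly mutants, at 9.20 and 7.59 CPM. Rcd-1r, Cad87A and nec each had another 72h peak at an end. The member at Cad87A also lay at an end of Dnali1, whose RNA rose. Dnali1 had 0.71 and 0.43 CPM in bam testes, 222.3 and 233.2 at 72h and 1.25 and 0.95 in aly mutants.

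The genes that were highest in aly mutants against 72h mostly returned to or passed the level of bam testes. Ugt36D1, a UDP-glycosyltransferase, had 50.3 and 53.0 CPM in bam testes, 13.3 and 12.8 at 72h and 53.2 and 52.6 in aly mutants, 4.07-fold above 72h (log2 difference 2.03, SE 0.06, adjusted p = 6.16e-24). Sin1, a subunit of the TORC2 kinase complex, had 24.5 and 26.6 CPM in bam testes, 13.1 and 13.2 at 72h and 54.7 and 53.5 in aly mutants. abo, known as a regulator of histone genes, peaked at 48h with 78.5 and 73.0 CPM, was at 35.9 and 34.9 at 72h and reached 138.2 and 139.0 in aly mutants. mthl10, a G protein-coupled receptor, had 61.0 and 56.4 CPM in bam testes, 18.1 and 17.0 at 72h and 63.8 and 70.0 in aly mutants. Zpr1, a zinc finger protein, had 40.5 and 39.2, 18.7 and 18.0, and 66.4 and 67.5 CPM in the same groups, and asRNA:CR44690 12.9 and 12.4, 5.49 and 5.80, and 17.9 and 19.4 CPM. The member at each of these 6 genes was covered by a topi peak over at least 76.3% of its width, and of the 6 genes only abo had no other 72h peak at an end.

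**Figure D5:**
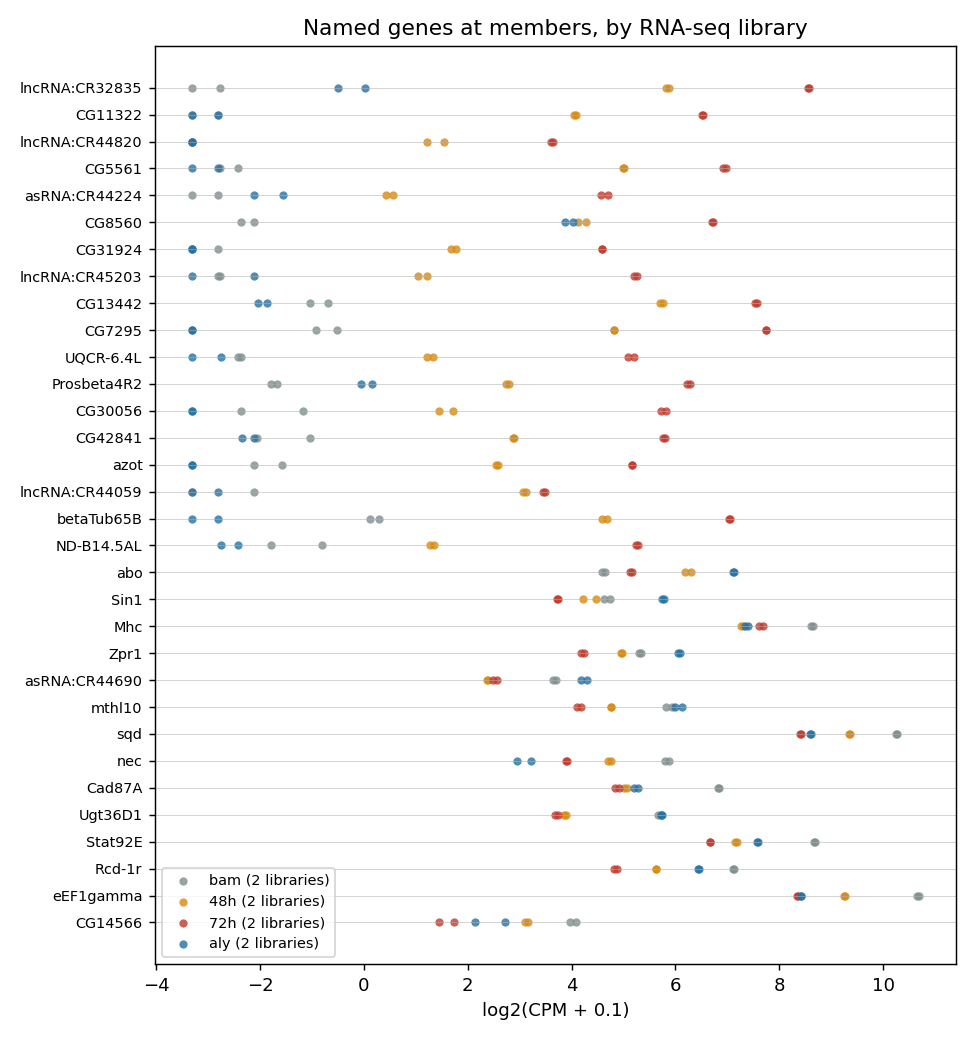
Level of each named gene in the 8 RNA-seq libraries as log2(CPM + 0.1), ordered by the log2 change of 72h against bam, with 2 points for each of the 4 groups. The upper genes are near the floor in bam testes and in aly mutants, except CG8560 with 14.6 and 16.3 CPM in aly mutants, and the lower genes are highest in bam testes or in aly mutants.

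Markers of other tissues moved with the groups. Mhc, the myosin heavy chain of muscle, was the single gene of 13 muscle genes in the table with a member at an end, at chr2L:16788597-16788696, a weak peak with a fold of 1.76. Its RNA was at 389.4 and 400.8 CPM in bam testes, 153.0 and 156.7 at 48h, 206.1 and 196.2 at 72h, against 162.8 and 168.3 in aly mutants. The 5 muscle markers summed to 936 to 955 CPM in bam testes, 378 to 387 at 48h, 520 at 72h and 383 to 391 in aly mutants, and none was at 0. The 4 counted markers of accessory gland and ejaculatory bulb summed to 81.5 to 85.2 CPM in bam testes, 536 to 540 at 48h, 1950 to 1980 at 72h and 88.1 to 88.4 in aly mutants, highest at 72h. None of these 4 had a member at an end, and EbpII was at 0 in 1 aly library. The 7 hub and cyst cell markers summed to 266 to 268 CPM in bam testes, 162 to 165 at 48h, 143 to 152 at 72h and 112 in aly mutants. They did not move together. From bam to 72h Fas3 fell from 140.0 and 137.3 to 28.8 and 28.0 CPM, and tj, zfh1, hh and ptc were lower as well. In contrast, eya rose from 50.5 and 50.4 to 74.2 and 81.8 CPM, and upd1 from 0.14 and 0.21 to 1.13 and 1.31. The part of these tissues in the gene results was not tested.

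Most members lay inside genes. Those genes were mostly long, and more of them fell than rose in mature spermatocytes, as did genes with any 72h peak inside. A member's summit lay inside 1210 genes, with a median length of 12.0 kb against 1.70 kb for all genes of the table, and 243 of them held 2 or more. Their length was not compared with that of genes with any 72h peak inside. Of the genes whose inside held a member, 1051 were in the count table and 993 were tested. In 72h against bam 272 rose (27.4%) and 639 fell (64.4%), with a median log2 change of -0.86. Of all genes 46.1% rose and 43.6% fell, and of genes with any 72h peak inside 35.0% and 57.1%. Genes that held any 72h peak had a median of -0.55, those with a peak open in neither mutant -0.19, those with an aly-only peak -0.61 and those with a peak open in both mutants -0.98. In aly mutants against 72h 516 were higher (52.0%) and 339 lower (34.1%), against 42.2% and 45.9% of all genes. The median was 0.24, against 0.18 for genes with any 72h peak inside. It was 0.34 for genes with a peak open in both mutants, 0.39 with an aly-only peak and -0.08 with a peak open in neither.

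The genes with most members inside were chosen by that count, after it was seen. SKIP and heph held 7 each, of 36 and 98 72h peaks, Ten-m 6 of 46, and lilli and sm 5 of 36 and 35. heph, the polypyrimidine tract binding protein needed for sperm individualisation, had 277.4 and 285.5 CPM in bam testes, 889.8 and 892.4 at 48h, 591.2 and 578.0 at 72h, against 703.8 and 711.9 in aly mutants. sm, an hnRNP L homolog, had 66.1 and 65.7 CPM in bam testes, 992.2 and 978.0 at 48h, 748.8 and 756.8 at 72h, against 1517 and 1506 in aly mutants. lilli, a relative of the AF4 elongation factors, had 113.7 and 112.2 CPM in bam testes, 357.8 and 354.0 at 72h and 153.0 and 151.6 in aly mutants. Ten-m, a teneurin of the cell surface, fell from 179.8 and 189.0 CPM in bam testes to 71.1 and 73.7 at 72h. Among the 8 genes with 4 members each, Dhc98D and pdm3 rose in 72h against bam, and Pde11, Sox102F, Trim9, bun, hth and pk fell.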

How the data were processed

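The deposited RNA-seq values are raw counts per gene, without normalization, and the deposited CAGE values raw counts per cluster number without coordinates, so CAGE could not be tied to regions and is not used. The authors' peak lists, 1 for each of 6 conditions, hold, for each peak, a -log10 q and a ratio of signal to background at its summit, called fold here. The deposited nucleosome maps give occupancy as a fraction and the counts of reads behind it. Per the submitters' processing notes, the build was dm6, and the tools were MACS2 2.1.1, bedtools 2.25.0, BWA 0.7.10, STAR 2.5.1b and 2.5.4b, Trim Galore 0.4.1 and deepTools 2.5.4, with no roles. The counting tool, the pooling of replicates and the ATAC-seq depth are not given in these sources.

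Peaks were compared by overlaps of 1 bp. Genes were placed by symbol on RefSeq's annotation of Release 6 plus ISO1 MT, the assembly of dm6; 17190 of 17559 identifiers matched. It has no strand, so a gene was linked to a member within 100 bp of either end. RNA-seq was fitted with edgeR 4.0.16 (R 4.3.3), filterByExpr, TMM and the quasi-likelihood F test on 8 libraries, with DESeq2 1.42.0 as an alternative. On simulated counts for 72h against bam over 13495 genes, 100 of 100 genes changed 2-fold and 100 of 100 changed 4-fold were recovered. The changed genes were drawn only from genes well expressed in bam testes, with the small spread between these replicates (2.11%). Linked genes had a median of 0.57 CPM in bam testes, a range in which the simulation changed no gene, so it does not measure recovery there. Counting intervals and floors (3 counts) cover counting error only.

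Named genes were the 8 largest rises and 8 largest falls in 72h against bam and the 6 largest falls and 6 largest rises in aly against 72h, among called linked genes whose groups did not overlap and whose higher group averaged at least 10 CPM, then the genes at the 8 members of highest fold and linked genes of 14 lists. The members and lists were chosen with earlier results of these data known, and the split at 50% coverage came with an alternative set of members. Sequences and motifs were not analysed here.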

Additional observations from a re-analysis of the deposited data

How the results depend on the processing

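The size of the set and its links carry most of the dependence on processing. Asking for a -log10 q of 10 or more left 256 members, of which 86.7% had a 48h peak, 50.8% a control peak and 12.9% a gene end. The topi list cut to the length of the aly list (chosen after seeing the data) left 1000, with 75.6% and 37.4%. Choosing by summit gave 72.9% and 36.7%, and leaving out members within 250 bp of a bam or aly peak gave 66.6% and 29.1%. A window of 1000 bp put 39.3% at a gene end. Mean nucleosome occupancy within 250 bp of the summit was 0.842 in bam, 0.828 in the control, 0.804 at 48h, 0.825 at 72h, 0.847 in aly and 0.807 in topi mutants. Linking within 1000 bp gave 416 genes higher and 398 lower in 72h against bam, 364 and 447 in aly against 72h, 406 and 389 in 48h against bam, and 433 and 307 in 72h against 48h. With at least 50% of the member inside a topi peak, 44 were higher and 48 lower in 72h against bam. In aly against 72h 34 were higher and 61 lower. The counts were 37 and 54 in 48h against bam, and 56 and 26 in 72h against 48h. Without genes that have another 72h peak at an end (also chosen after seeing the data), the counts higher and lower were 65 and 22, 18 and 72, 57 and 30, and 72 and 10 in the same order of comparisons. With the shortened topi list, they were 49 and 39, 34 and 57, 42 and 39, and 53 and 25. Without members under a control peak (also chosen after seeing the data), they were 78 and 41, 29 and 89, 73 and 38, and 83 and 24. These alternatives test fewer or more genes by construction. Leaving out 1 library at a time moved the median log2 change of linked genes within 1.67 to 2.14 in 72h against bam and -2.14 to -1.72 in aly against 72h. The range was 0.734 to 0.975 in 48h against bam and 0.864 to 1.17 in 72h against 48h. The median of all genes in 72h against 48h, 0.162 with every library, was -0.0171 without 48h replicate 1 and -0.00643 without 48h replicate 2. In 48h against bam it was 0.0586 with every library and 0.0756 to 0.274 with 1 left out. With the replicate number as a block, 103 genes were higher and 55 lower in 72h against bam. Same-numbered libraries correlated at 0.03 to 0.10 in their deviations. With replicates so near counting noise, these correlations cannot show whether such libraries share more than a number. Of 1280 values of single genes, 22 lost their call and 3 turned: eEF1gamma in aly against 72h to -0.01745 with DESeq2's size factors and -0.01755 with DESeq2's test, and Sin1 in 48h against bam, which ran from -0.262 to 0.012 with 1 library left out and turned without 48h replicate 1. The cause was not tested. Alternatives for CAGE and for motif words were not run, since neither could be tied to regions. Depth limits genes with few counts in bam testes, whose ratios have wide intervals.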
